A study of Mus musculus with 10 samples.

Results

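The 37 genes described here encode enzymes and carriers of the tricarboxylic acid (TCA) cycle and the malate-aspartate shuttle, the breakdown of the branched-chain amino acids (BCAA) leucine, isoleucine and valine, and the use of ketone bodies. They were named by symbol, matched to Ensembl identifiers, and all 37 were found among the 15341 genes of the count table. All 37 also passed the filter on low counts, among 12992 genes tested. RNA sequencing was done on heart tissue of 10 male mice, taken here as 1 sample per animal. The 5 S1Pless animals had the genotype Sphk1f/-:Sphk2f/-:Mx1Cre+, and the 5 littermate controls Sphk1f/-:Sphk2f/-:Mx1Cre-. Both groups therefore carried a floxed and a null allele of each sphingosine kinase gene, and they differed in Mx1-Cre, a recombinase under a promoter that interferon switches on, chiefly in the blood-forming system and liver but also elsewhere. The sources used here give neither the age of the mice nor whether or how Cre was induced. Sphingosine 1-phosphate (S1P) is a blood-borne lipid messenger, and the comparison asks how the heart differs in animals described as lacking it in plasma.

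The heart draws most of its energy from mitochondrial oxidation. Acetyl-CoA from fatty acids, pyruvate, ketone bodies and leucine enters the TCA cycle at citrate synthase, and the cycle's dehydrogenases pass electrons to the respiratory chain. The malate-aspartate shuttle carries cytosolic reducing equivalents into the mitochondrion. BCAA are first transaminated, and the resulting keto acids are committed to oxidation by the branched-chain keto acid dehydrogenase complex (BCKDH), which a kinase turns off and a phosphatase turns on. Genes of this breakdown pathway are known to be lower in failing hearts.

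The libraries held 16354071 to 20832566 counts in S1Pless hearts and 17204491 to 20202283 in controls. Levels below are CPM, counts scaled for library size with TMM factors, in which 1 read amounted to 0.0451 to 0.0658 CPM. The targeted kinase genes were measured over the whole gene, which does not separate the alleles. Sphk1 had 0.400 to 0.987 CPM in S1Pless hearts and 0.852 to 1.78 CPM in controls, and Sphk2 had 13.9 to 18.7 CPM in S1Pless hearts and 18.04 to 23.6 CPM in controls. Neither passed the threshold (edgeR adjusted p = 0.168 for Sphk1 and 0.180 for Sphk2), so the kinase transcripts check the labels only in part. Myh6, the main myosin heavy chain of adult mouse heart muscle, stood at 17399 ± 2652 CPM in S1Pless hearts and 19530.1 ± 1781 CPM in controls.

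All 37 genes had a log2 fold change below 0, S1Pless over control, against 52.6% of all genes tested, and none passed the test. The mean of a gene in S1Pless hearts was 78.6% to 90.6% of its control mean, with a median of 84.8%. The log2 fold changes ran from -0.35 to -0.14, with a median of -0.24, against a median of -0.01 over all 12992 genes tested. None of the 37 reached an adjusted p of 0.05 in edgeR (quasi-likelihood, Benjamini-Hochberg adjusted over all genes), the lowest adjusted p being 0.102. In that test 3.72% of all genes were called, 3.4% higher and 0.316% lower. DESeq2 on the same counts called 8 of the 37 lower, against 2.03% of all genes: Cs, Idh3a, Idh3b, Ppm1k, Mccc1, Hibadh, Pcca and Acat1. At an unadjusted p below 0.05, 21 of the 37 genes (56.8%) were lower and 0 were higher, against 6.82% and 13% of all genes tested. That count was 12 without control replicate 3 and 13 without S1Pless replicate 1. It was 0 with libraries scaled by their totals alone, where the median of all genes moved to 0.12, and 1 with the cardiomyocyte score as a covariate. In other settings the count was higher, at 27 with RLE scaling factors, 30 in DESeq2 and 25 with the number series of the sample titles as a covariate. All S1Pless hearts lay below all controls in 7 of the 37 genes (18.9%), against 1.82% of all genes tested. The reverse order was seen in 0 of the 37, against 4.53%. Both orders, and the non-overlap of single genes below, were read on TMM-scaled CPM. The TMM factors were 0.996 to 1.08 in S1Pless hearts and 0.884 to 1.001 in controls. On raw shares of a library such groups can overlap. Acat1, 1 of the 7, had 8933 of 16354071 counts in S1Pless replicate 3, against 8546 of 17204491 in control replicate 1. These genes are expressed together in the same cells, so the 37 values are not 37 independent observations. Library preparation kept strand, but the sources used here do not give the strand and multi-mapping settings of the counting, so reads shared with pseudogenes or overlapping genes are uncertain.

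**Figure D1:**
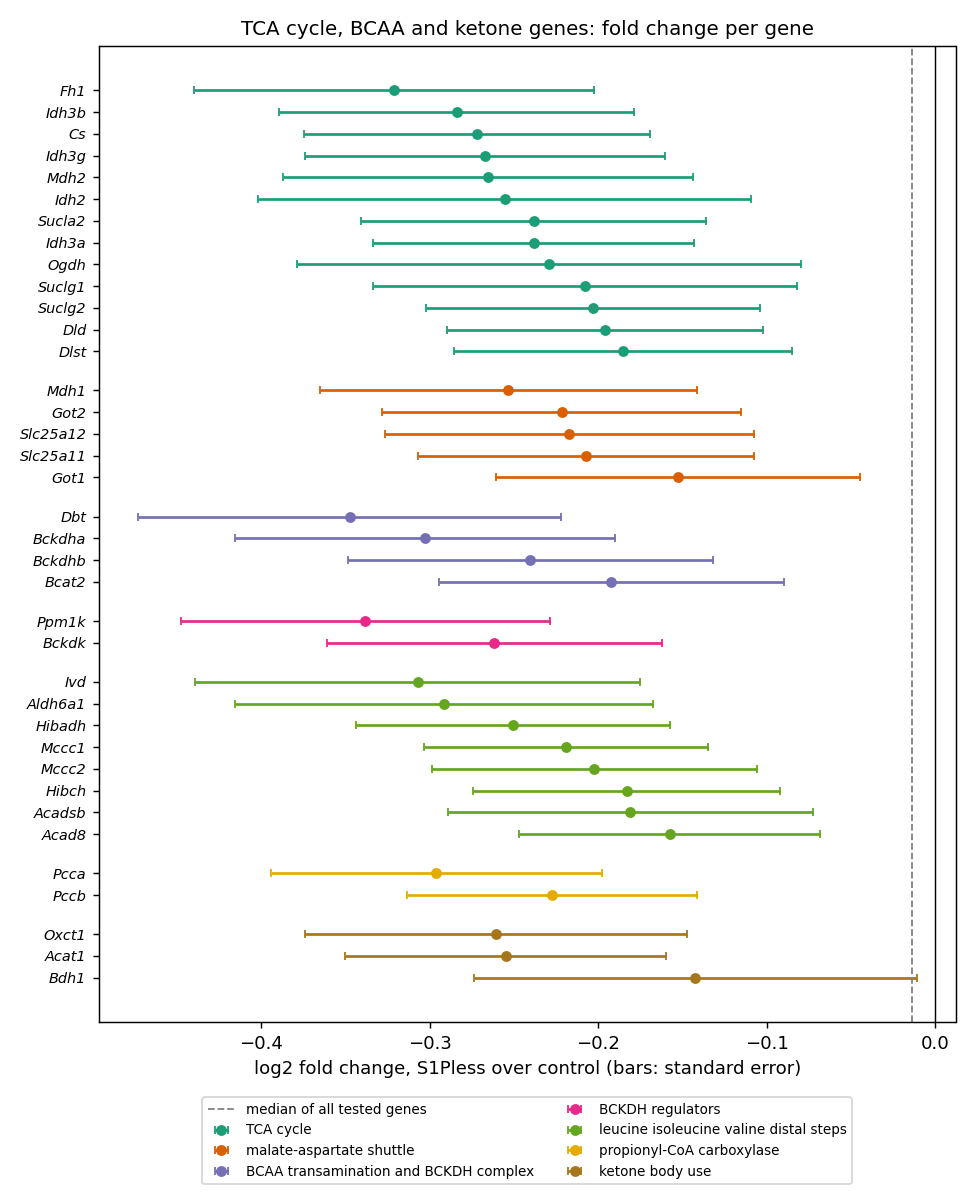
Log2 fold change of each gene, S1Pless over control, with its standard error, grouped by role; the dashed line marks the median of all tested genes at -0.01. Every point lies to the left of 0, between -0.35 for Dbt and -0.14 for Bdh1, and standard errors run from 0.08 to 0.15.

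The size of the difference was similar in each branch of metabolism. Median log2 fold changes were -0.24 for the 13 TCA cycle genes, -0.22 for the 5 other genes of the malate-aspartate shuttle, and -0.27 for the 4 genes of BCAA transamination and BCKDH. They were -0.30 for the 2 BCKDH regulators, -0.21 for the 8 genes of the later steps of BCAA breakdown, -0.26 for the 2 propionyl-CoA carboxylase subunits and -0.25 for the 3 ketone genes. The differences between these medians are smaller than the standard error of most single genes, which was 0.08 to 0.15, and they were not tested against each other.

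In each heart the median of the 37 genes, as a percentage of each gene's control mean, separated the groups. It was 75.4%, 90.3%, 82.2%, 90.2% and 83.6% in S1Pless replicates 1 to 5, and 93.9%, 94.7%, 105%, 101% and 101% in control replicates 1 to 5. The groups did not overlap. S1Pless replicate 1 was the lowest of all 10 hearts in 21 genes, S1Pless replicate 5 in 13 and S1Pless replicate 3 in 3. Control replicate 3 was the highest of all hearts in 18 genes and control replicate 5 in 11. Together the 37 genes made up 15248 to 18041 CPM in S1Pless hearts and 19361 to 21228 CPM in controls. As a share of raw reads, which no scaling factor touches, they took 1.62% to 1.89% in S1Pless hearts and 1.71% to 1.97% in controls, and on that scale the groups overlapped.

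**Figure D2:**
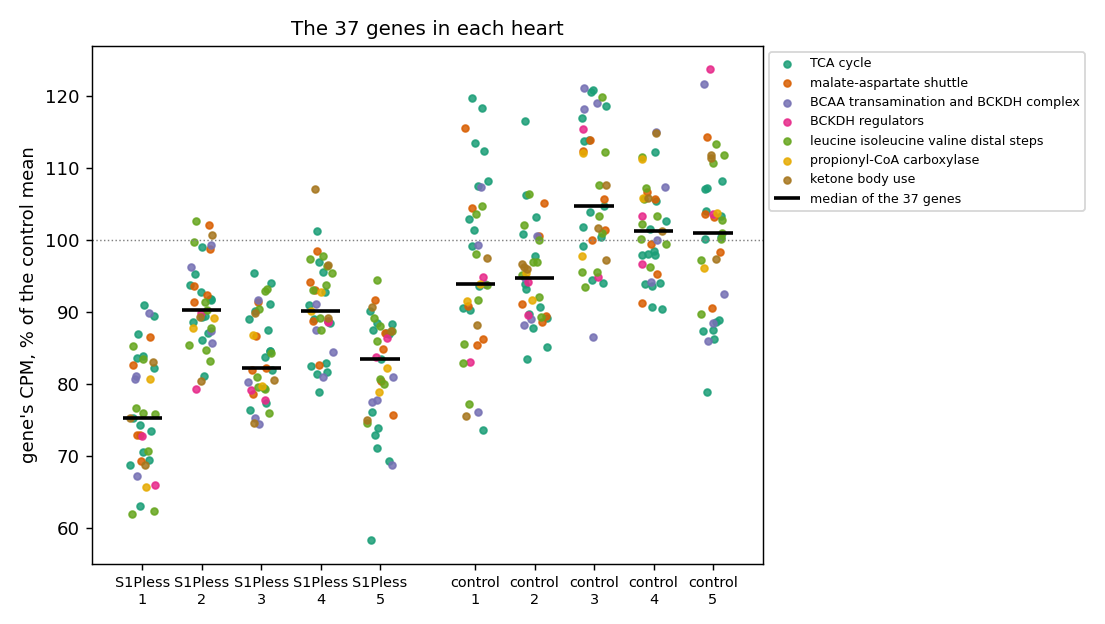
CPM of each of the 37 genes in each heart as a percentage of the gene's control mean, coloured by role; black bars mark the median of the 37 genes. The bars sit between 75.4% and 90.3% in the 5 S1Pless hearts and between 93.9% and 105% in the 5 controls, while single genes of the groups overlap.

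Among the TCA cycle genes Fh1 (ENSMUSG00000026526), fumarate hydratase, had the smallest p. Fh1 had 309.8, 327, 282, 302 and 256 CPM in S1Pless replicates 1 to 5, against 442, 314, 420.0, 346 and 323 CPM in control replicates 1 to 5. The means were 295 ± 27.2 CPM in S1Pless hearts and 369 ± 58.2 CPM in controls (SD, n = 5 each), a log2 fold change of -0.32 ± 0.12 (SE; edgeR adjusted p = 0.152). The groups overlapped, since control replicates 2 and 5 lay within the S1Pless range and control replicates 1 and 3 far above it. Citrate synthase, which condenses acetyl-CoA with oxaloacetate and is widely used as a measure of mitochondrial content, is encoded by Cs (ENSMUSG00000005683). Cs had 907, 1146, 1020.5, 1167 and 1072 CPM in S1Pless replicates 1 to 5, against 1158, 1363, 1212, 1304 and 1376 CPM in control replicates 1 to 5 (log2 fold change -0.27 ± 0.10, adjusted p = 0.163). The highest S1Pless heart lay just above the lowest control, and the groups overlapped there only.

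The 3 subunits of the NAD-dependent isocitrate dehydrogenase differed to a like extent. Idh3a, the catalytic subunit, averaged 566 ± 53.0 CPM in S1Pless hearts and 668 ± 28.4 CPM in controls, and its groups did not overlap (503 to 626 against 627 to 699 CPM). Idh3b and Idh3g, the other 2 subunits, had log2 fold changes of -0.28 ± 0.11 and -0.27 ± 0.11, with overlap. Idh2, the NADP-dependent mitochondrial form, had the highest level per length of the 37 genes, at 988 CPM per kilobase of exon in S1Pless hearts and 1180 in controls. Its single hearts spread widely, with 1841, 1912, 1833, 1835 and 1201 CPM in S1Pless replicates 1 to 5 and 2227, 2013, 2489, 1938 and 1626 CPM in control replicates 1 to 5. The mean of S1Pless hearts thus rests in part on replicate 5, and without that heart the log2 fold change of Idh2 was -0.16 instead of -0.26 ± 0.15.

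The oxoglutarate dehydrogenase complex turns 2-oxoglutarate into succinyl-CoA. Its dehydrogenase Ogdh, its transferase Dlst and the shared dihydrolipoamide dehydrogenase Dld had log2 fold changes of -0.23 ± 0.15, -0.19 ± 0.10 and -0.20 ± 0.09. Dld, which also serves BCKDH and the pyruvate dehydrogenase complex, had 344, 425, 417, 429 and 403 CPM in S1Pless replicates 1 to 5 and 459, 431, 471, 455 and 495 CPM in control replicates 1 to 5, without overlap (adjusted p = 0.265). Succinyl-CoA ligase joins a common subunit, Suclg1, with an ATP-forming subunit, Sucla2, or a GTP-forming one, Suclg2. Their log2 fold changes were -0.21 ± 0.13, -0.24 ± 0.10 and -0.20 ± 0.10. Per length Sucla2 stood far above Suclg2, at 248 against 26.4 CPM per kilobase in S1Pless hearts and 292 against 30.4 in controls. The ratio of their counts within a heart was 5.28 to 5.77 in S1Pless hearts and 4.85 to 6.38 in controls. Mdh2, the mitochondrial malate dehydrogenase that closes the cycle, averaged 979 ± 91.0 CPM in S1Pless hearts and 1176 ± 186 CPM in controls.

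The malate-aspartate shuttle pairs Mdh2 and the mitochondrial aspartate aminotransferase Got2 with their cytosolic forms Mdh1 and Got1, and with the carriers Slc25a11 and Slc25a12. Mdh1 (ENSMUSG00000020321) had 1746, 1864, 1652, 1666 and 1527 CPM in S1Pless replicates 1 to 5, against 2329, 1787, 2297, 1839.6 and 1826 CPM in control replicates 1 to 5. Its log2 fold change was -0.25 ± 0.11 (adjusted p = 0.227), and control replicates 1 and 3 stood above the rest, as in Fh1. Got1 and Got2 had log2 fold changes of -0.15 ± 0.11 and -0.22 ± 0.11, Slc25a11, the oxoglutarate carrier, -0.21 ± 0.10 and Slc25a12, the aspartate/glutamate carrier of muscle, -0.22 ± 0.11. The ratio of cytosolic to mitochondrial transcripts did not separate the groups. Mdh1 over Mdh2 was 1.66 to 1.82 in S1Pless hearts and 1.62 to 1.80 in controls, and Got1 over Got2 was 2.28 to 2.62 in S1Pless hearts and 2.20 to 2.49 in controls.

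BCAA breakdown begins with the mitochondrial aminotransferase Bcat2, which averaged 215 ± 19.3 CPM in S1Pless hearts and 246 ± 26.9 CPM in controls (log2 fold change -0.19 ± 0.10). BCKDH is built from a decarboxylase with alpha and beta subunits, Bckdha and Bckdhb, and a transferase core, Dbt. Dbt (ENSMUSG00000000340) had 52.8, 67.1, 58.4, 66.2 and 63.5 CPM in S1Pless replicates 1 to 5, against 59.7, 78.8, 67.8, 90.1 and 95.4 CPM in control replicates 1 to 5. That is a log2 fold change of -0.35 ± 0.13, the lowest of the 37 genes (adjusted p = 0.143). Control replicate 1 lay within the S1Pless range, and without it Dbt passed the threshold (log2 fold change -0.45, adjusted p = 0.0449), as 1 of the 37 genes against 0.649% of all genes called lower in that fit. Bckdha had 246, 265, 243, 265 and 208 CPM in S1Pless replicates 1 to 5 and 285, 269.9, 367, 325 and 268 CPM in control replicates 1 to 5, without overlap (log2 fold change -0.30 ± 0.11, adjusted p = 0.156). Bckdhb had a log2 fold change of -0.24 ± 0.11. Bckdha was the most abundant of the 3 per length, at 129 CPM per kilobase in S1Pless hearts and 160 in controls. Bckdhb had 28.5 CPM per kilobase in S1Pless hearts and 33.7 in controls, and Dbt 18.7 in S1Pless hearts and 23.7 in controls.

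Both regulators of BCKDH had log2 fold changes below 0, and neither passed the test. Ppm1k (ENSMUSG00000037826), the phosphatase that turns the complex on, had the smallest p of the 37 genes. It had 90.5, 109, 107, 121 and 115 CPM in S1Pless replicates 1 to 5, against 130.1, 123, 129.96, 133 and 169 CPM in control replicates 1 to 5. The means were 108 ± 11.5 CPM in S1Pless hearts and 137 ± 18.5 CPM in controls (log2 fold change -0.34 ± 0.11, adjusted p = 0.102), and the groups did not overlap. Control replicate 5 stood apart at the top. Bckdk, the kinase that turns the complex off, averaged 71.4 ± 6.18 CPM in S1Pless hearts and 85.6 ± 10.3 CPM in controls (log2 fold change -0.26 ± 0.10). The ratio of Bckdk to Ppm1k counts within a heart was 0.626 to 0.707 in S1Pless hearts and 0.523 to 0.761 in controls, a mean log2 difference of 0.08 (two-sided exact permutation p = 0.452, adjusted p = 0.881 over 10 ratios). The number in a sample's title begins with 38 or 44, with no meaning given. Ppm1k passed the threshold with that split as a covariate (log2 fold change -0.39, adjusted p = 0.0319), where 0.3% of all genes were called lower.

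**Figure D3:**
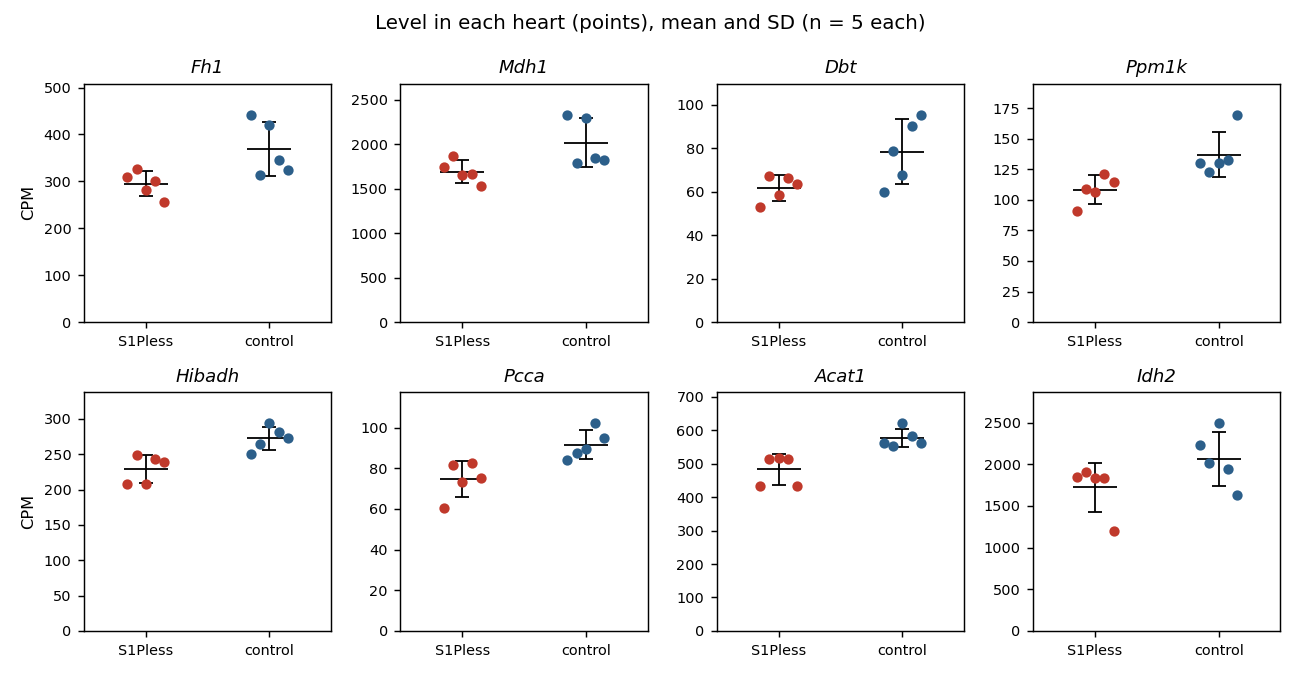
CPM in each heart, replicates 1 to 5 from left to right, with the mean and SD of S1Pless (left) and control hearts (right), for the gene with the smallest p in each role and for Idh2. The groups do not overlap in Ppm1k, Hibadh, Pcca and Acat1, and S1Pless replicate 5 lies apart in Idh2 at 1201 CPM.

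After BCKDH the pathway divides into branches for each amino acid. Hibadh (ENSMUSG00000029776), a dehydrogenase of the valine branch, had 207, 249.02, 207, 243 and 238 CPM in S1Pless replicates 1 to 5, against 249.8, 264, 294, 282 and 273 CPM in control replicates 1 to 5 (log2 fold change -0.25 ± 0.09, adjusted p = 0.155). The groups did not overlap, but the highest S1Pless heart and the lowest control nearly met. The other valine genes, Acad8, Hibch and Aldh6a1, had log2 fold changes of -0.16 ± 0.09, -0.18 ± 0.09 and -0.29 ± 0.12. In the leucine branch Ivd, isovaleryl-CoA dehydrogenase, had -0.31 ± 0.13, and Mccc1 and Mccc2, the subunits of methylcrotonyl-CoA carboxylase, had -0.22 ± 0.08 and -0.20 ± 0.10. Acadsb, which acts on the isoleucine product, had -0.18 ± 0.11. Acad8 had the lowest level of all 37 genes per length, at 14.2 CPM per kilobase in S1Pless hearts and 15.9 in controls.

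Isoleucine and valine end in propionyl-CoA, which propionyl-CoA carboxylase feeds towards the TCA cycle. Pcca (ENSMUSG00000041650), its biotin-carrying subunit, had 60.3, 81.8, 73.2, 82.7 and 75.5 CPM in S1Pless replicates 1 to 5 and 84.0, 87.6, 89.7, 102 and 95.1 CPM in control replicates 1 to 5. Its log2 fold change was -0.30 ± 0.10 (adjusted p = 0.112), the second smallest p of the 37 genes, and the groups did not overlap. Its partner Pccb had -0.23 ± 0.09.

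Ketone bodies are used in 3 steps. Bdh1 oxidises hydroxybutyrate, Oxct1, the rate-limiting enzyme, activates the product with CoA, and Acat1 splits the product to acetyl-CoA. Acat1 (ENSMUSG00000032047), which also ends the isoleucine branch, had 434, 515, 518, 514 and 433 CPM in S1Pless replicates 1 to 5, against 562, 554, 621, 584 and 561 CPM in control replicates 1 to 5. That is a log2 fold change of -0.25 ± 0.10 (adjusted p = 0.157), and its groups did not overlap. Oxct1 averaged 1126 ± 144 CPM in S1Pless hearts and 1349 ± 123 CPM in controls. Bdh1, at 207 ± 30.1 CPM in S1Pless hearts and 228 ± 35.4 CPM in controls, had the difference nearest to 0 (log2 fold change -0.14 ± 0.13).

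The 10 ratios of members within a heart, which do not depend on the scaling between libraries, did not pass a test. Their mean log2 differences, S1Pless minus control, ran from -0.08 for Pcca over Pccb to 0.13 for Bdh1 over Oxct1. The groups overlapped in all 10, and the lowest two-sided exact permutation p was 0.230, for Got1 over Got2 (adjusted p = 0.881, with 0.00794 the smallest p that the 252 arrangements allow). The SD of the log2 ratios within a group was 0.05 to 0.38, smallest for Mdh1 over Mdh2 and largest for Bckdha over Dbt.

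Other genes of these or neighbouring pathways, from lists written down by function, mostly had a log2 fold change below 0. Of 20 tested genes of the TCA cycle and its side reactions 17 had a log2 fold change below 0 (median -0.18). In that list 0 were called lower and 1 higher, against 0.316% and 3.4% of all genes tested. Gpt2, Sdhc and Klf15 were chosen after their values were seen. Gpt2, the mitochondrial alanine aminotransferase, had a log2 fold change of -0.40 ± 0.13 (adjusted p = 0.101), the smallest p among those below 0. The succinate dehydrogenase subunit Sdhc had a log2 fold change of -0.30 ± 0.10 (adjusted p = 0.117). The called gene was Pck2, the mitochondrial enzyme that makes phosphoenolpyruvate from oxaloacetate. Pck2 stood at 17.3 ± 0.906 CPM in S1Pless hearts, against 13.2 ± 1.62 CPM in controls (1.32-fold, edgeR adjusted p = 0.0362). Of 15 further genes of BCAA breakdown and transport, 14 had a log2 fold change below 0 (median -0.13) and 0 were called. The hydratase Echs1 had the smallest p there (-0.27 ± 0.09, adjusted p = 0.120), followed by the mutase Mmut (-0.24 ± 0.12, adjusted p = 0.275). Klf15, which encodes a regulator of BCAA breakdown in muscle, had -0.16 ± 0.10. Of 5 other ketone genes tested 4 were below 0 and 0 were called, with the smallest p-values in Acat2 (-0.39 ± 0.16) and Hmgcs1 (-0.16 ± 0.08), which encode cytosolic enzymes known for sterol synthesis and not for ketone use. In a list of 16 regulators of mitochondrial genes 14 were below 0 (median -0.16) and 0 were called. Rxrg, a retinoid receptor, had -0.21 ± 0.08 and Ppargc1a, the coactivator PGC-1 alpha, had -0.27 ± 0.13.

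All 15 tested markers of heart muscle cells also had a log2 fold change below 0 (median -0.19), with none called, and the smallest p-values were those of Pln (-0.30 ± 0.09, adjusted p = 0.0890) and Ckm (-0.27 ± 0.11, adjusted p = 0.205). Their summed level was 76219 to 90357 CPM in S1Pless hearts and 93855 to 103707 CPM in controls. As a share of raw reads these markers took 8.26% to 9.14% in S1Pless hearts and 8.59% to 9.64% in controls, and on that scale the groups overlapped. All 19 tested macrophage markers had a log2 fold change above 0, and 10 were called higher, against 3.4% of all genes. They summed to 656 to 1565 CPM in S1Pless hearts and 409 to 532 CPM in controls, and Ccr2, a receptor of recruited monocytes, was 3.12-fold higher (adjusted p = 0.0119). Of 12 fibroblast markers 11 were above 0 and 1 was called higher, Dpep1. Endothelial markers were mixed, with 8 of 12 above and 4 below 0, and 1 called higher, Erg. Among 5 lymphocyte markers tested, 4 were above 0 and 1 was called higher, Ptprc. These single calls stand beside 3.4% of all genes called higher. Ptprc is not particular to lymphocytes, and its highest heart was S1Pless replicate 5, at 42.7 CPM. No other lymphocyte marker tested was called. Of the atrial markers 5 of 6 tested were above 0, with none called. The atrial list summed to 158 to 393 CPM in S1Pless hearts and 78.7 to 326 CPM in controls. Nppa alone had 77.9 to 333 CPM in S1Pless hearts and 21.8 to 260 CPM in controls. S1Pless replicate 3 stood apart in Myl7 at 9.69 CPM, where the highest other heart had 0.142, in Sln at 4.29 CPM, where it had 0.168, and in Myl4 at 18.2 CPM, where it had 3.28. Without that heart the median log2 fold change of the 37 genes was -0.23, all 37 were below 0, and 14 were lower at an unadjusted p below 0.05. None of the tested markers of adipocytes (2), skeletal muscle (4), red cells (5) or smooth muscle and pericytes (12) was called. In bulk RNA, fewer cells of a type and less RNA per cell cannot be told apart.

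Measured against the cardiomyocyte markers of the same heart, the 37 genes differed little between the groups. The mean log2 level of the 37 genes minus that of the 15 markers was -4.08, -3.98, -3.95, -3.92 and -3.90 in S1Pless replicates 1 to 5, and -4.01, -3.92, -3.97, -3.83 and -3.87 in control replicates 1 to 5. The means were -3.97 ± 0.07 in S1Pless hearts and -3.92 ± 0.07 in controls, a difference of -0.05 within the spread of each group. With all libraries scaled to the cardiomyocyte markers, a choice made after seeing the data, the median log2 fold change of the 37 genes was -0.045, 30 were below 0, and 0 were lower at an unadjusted p below 0.05. That scaling moved the median of all tested genes to 0.18. A change of scaling shifts all genes nearly alike. It therefore cannot test the difference of medians between the 37 and all genes, which was -0.22 on the log2 scale. The largest differences left were in Dbt (-0.17) and Ppm1k (-0.15).

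**Figure D4:**
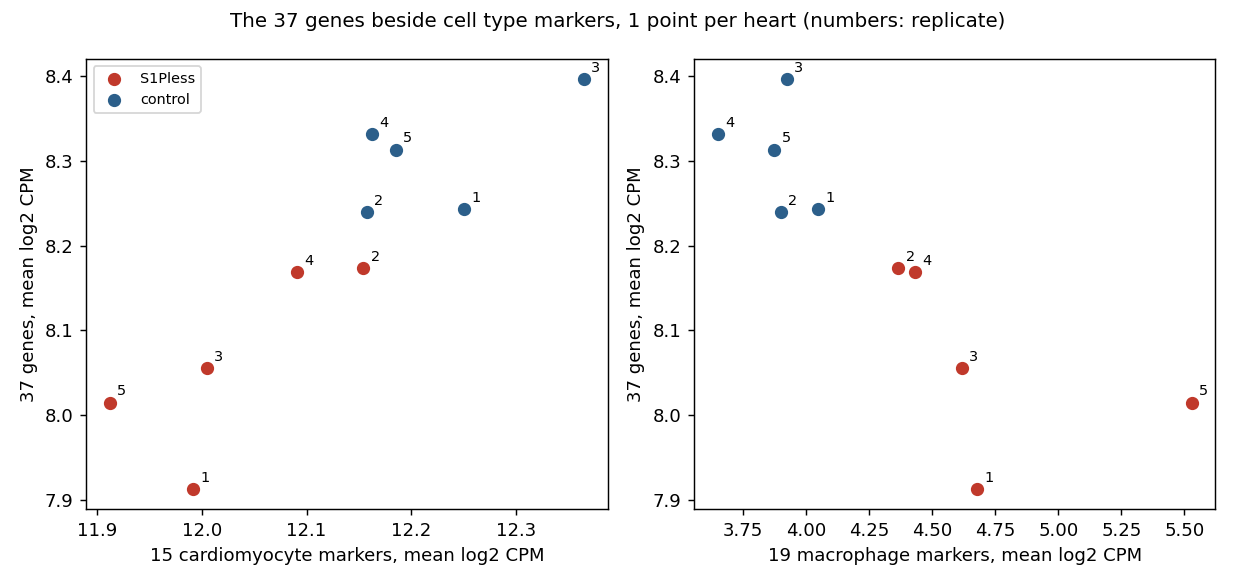
Mean log2 CPM of the 37 genes (vertical) beside that of 15 cardiomyocyte markers (left) and 19 macrophage markers (right), 1 point per heart, numbered by replicate. S1Pless hearts lie at 7.91 to 8.17 and controls at 8.24 to 8.40 on the vertical axis, and S1Pless replicate 5 has the highest macrophage level, 5.53.

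Within a group, hearts differed both in the overall level of the 37 genes and in how a gene's level followed its exon length. Exon length here is the union of annotated exons, 1331 to 6749 bases. In S1Pless replicates 1 to 5, Spearman's rho across the 37 genes between exon length and a gene's level relative to its group mean was -0.70, -0.64, 0.035, 0.72 and 0.66. In control replicates 1 to 5 it was -0.74, 0.49, -0.70, 0.57 and 0.76. Over all 12976 tested genes with a length the signs were the same in every heart, with rho from -0.54 in control replicate 3 to 0.43 in control replicate 5. In S1Pless replicate 1 both the 19 shorter and the 18 longer genes had medians below their S1Pless mean, at 95.5% and 84.2%, and in S1Pless replicate 2 both lay above it, at 110.2% and 107%. In control replicate 1 the 19 shorter genes had a median of 104% of their control mean and the 18 longer ones 89.3%, while in control replicate 5 these values were 92.6% and 108%. Short genes such as Mdh2, Idh3b and Suclg1 were highest in control replicates 1 and 3, and long ones such as Ogdh, Ivd and Slc25a12 were low in control replicate 1. These correlations are across genes, which share their library and are not replicates.

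The difference between the groups did not follow length. The median log2 fold change was -0.23 in the 19 shorter and -0.26 in the 18 longer genes, and rho between exon length and log2 fold change across the 37 genes was -0.0069. A further fit, added once the data had been seen, took each heart's length slope over all genes as a covariate. In it the median log2 fold change was -0.23. There 7 of the 37 genes were called lower (18.9%), against 1.95% of all genes tested: Cs, Dbt, Ppm1k, Ivd, Aldh6a1, Pcca and Oxct1, with edgeR adjusted p-values of 0.0261 to 0.0474. Such a covariate takes up spread within the groups that the test without it counts as error. What sets the slope of a heart, such as RNA quality, was not tested.

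**Figure D5:**
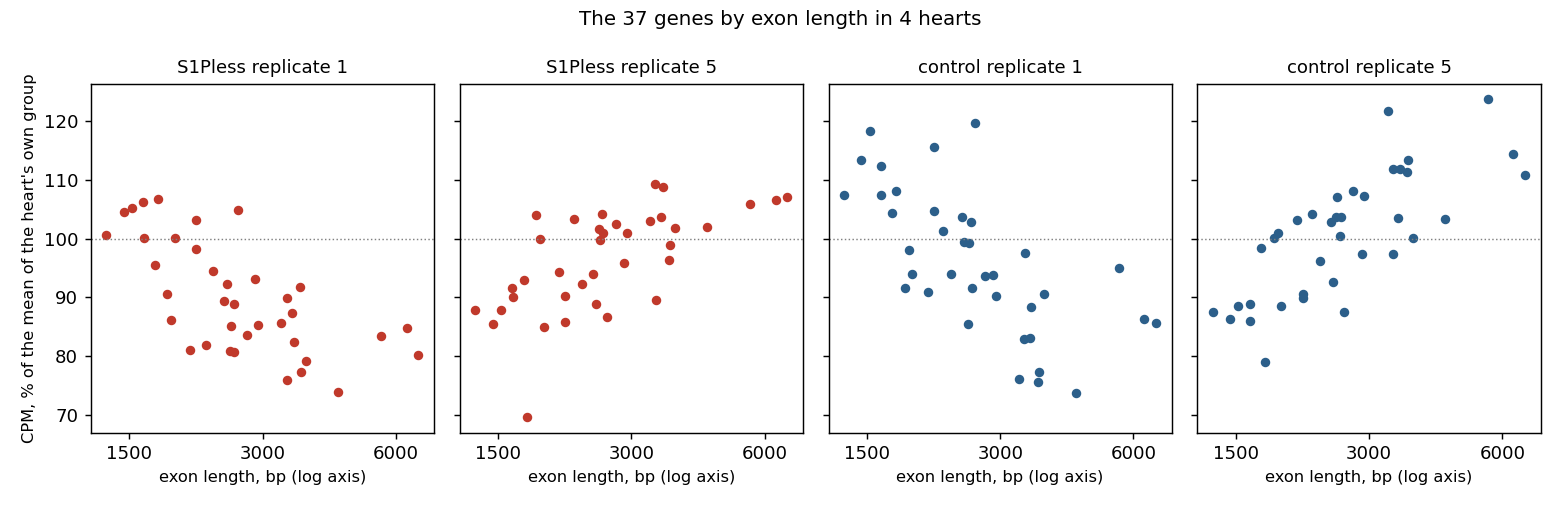
Level of each of the 37 genes as a percentage of the mean of the heart's own group, against exon length on a log axis, in S1Pless replicates 1 and 5 and control replicates 1 and 5. In replicate 1 of both groups longer genes lie lower (rho -0.70 and -0.74), and in replicate 5 of both groups they lie higher (rho 0.66 and 0.76).

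All 37 genes had a log2 fold change below 0, though none passed the test in edgeR. The sequence before their transcription starts was searched for motifs of factors known to bind promoters of mitochondrial genes, and for CCAAT, common in promoters. RefSeq (GRCm38.p6, an older build than that of the counts) gives a promoter for 34 of the 37 genes, with 44 starts, and the 250 bases before each start were read on both strands. The motif CCAAT was found in 20 of 34 genes (58.8%), against 40% of the 10135 tested genes with a promoter. TGCGCA, the core of the NRF1 site, was found in 4 genes (11.8%), Ogdh, Got2, Hibadh and Pccb, against 12.8%. The full palindromic NRF1 element was found in 0 genes, against 1.78%, and the element TNAAGGTCA of the estrogen-related receptors in 0, against 0.839%. The shorter motif AAGGTCA within it was found in 1 gene, Got1 (2.94%), against 3.47%, and the ETS motif CCGGAAG in 1, Idh3g (2.94%), against 15.1%. Of 8 genes with a single listed start that is also the outermost annotated one, the gene with the smallest p in each role they cover is shown as an example, with the 200 bases before the start and CCAAT, on either strand, in capitals. Fh1 lies at chr1:175625636-175625835, Got1 at chr19:43524606-43524805 and Mccc2 at chr13:100015640-100015839, all on the minus strand, and Bckdk at chr7:127903873-127904072 on the plus strand.
Fh1: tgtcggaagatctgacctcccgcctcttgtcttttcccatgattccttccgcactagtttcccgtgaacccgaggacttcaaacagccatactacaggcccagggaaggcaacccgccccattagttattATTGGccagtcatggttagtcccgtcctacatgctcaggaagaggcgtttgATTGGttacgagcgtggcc
Got1: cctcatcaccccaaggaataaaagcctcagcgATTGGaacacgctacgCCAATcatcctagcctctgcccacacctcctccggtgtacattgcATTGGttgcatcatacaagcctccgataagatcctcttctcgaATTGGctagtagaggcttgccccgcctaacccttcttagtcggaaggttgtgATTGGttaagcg
Bckdk: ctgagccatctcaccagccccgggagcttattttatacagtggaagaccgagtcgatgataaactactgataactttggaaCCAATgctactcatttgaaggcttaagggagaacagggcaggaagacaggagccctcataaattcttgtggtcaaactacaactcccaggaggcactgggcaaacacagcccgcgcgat
Mccc2: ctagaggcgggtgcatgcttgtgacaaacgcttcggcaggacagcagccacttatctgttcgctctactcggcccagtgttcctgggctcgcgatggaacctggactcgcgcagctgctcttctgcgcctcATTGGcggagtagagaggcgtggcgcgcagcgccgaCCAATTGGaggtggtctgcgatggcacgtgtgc
A match is a run of letters and says nothing of whether a factor binds there.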

How the data were processed

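Illumina stranded mRNA libraries were made from heart RNA, per the labels' protocols. The authors deposited whole-number counts, not normalized, for each gene and heart. Per the submitters' processing notes, STAR 2.7.8a, featureCounts 2.0.1 and GRCm39 were used; the annotation release and strand setting were not given. Groups were taken from the genotype labels.

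The 37 genes, the gene lists and the tests were chosen with earlier results of these data known. Of 15341 genes, 12992 passed edgeR's filterByExpr (minimum count 10) and were fitted together in R 4.3.3 with edgeR 4.0.16, using TMM factors and the robust quasi-likelihood test of S1Pless against control; p-values were adjusted by Benjamini-Hochberg over all of them, with a threshold of 0.05. DESeq2 1.42.0 and limma 3.58.1 (voom) were alternatives, with other scalings, filters, covariates and leaving out each heart. Same-group hearts differed by more than counting noise (chi-square per degree of freedom 10.1 to 70.0), so no same-group pair was 1 library sequenced again. Pairs across the groups were not checked, and the check cannot detect a second library made from the same heart. Ratios of counts within a heart, with an offset of 0.5, were compared by two-sided exact permutation tests. Per-length levels and exon lengths use GENCODE M21, and promoters RefSeq on GRCm38.p6. The gene with the smallest p in each role is given with the value of every heart; other genes given by heart were chosen after their values were seen. P-values set the difference between the groups against the spread between these hearts, which edgeR estimates with information from all genes fitted. The other lists are given as counts with a few examples (up to 4 called genes, or up to 2 with the smallest p where none was called), and not all their values are reported here.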

Additional observations from a re-analysis of the deposited data

Results flagged for a closer look

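In 94 groups of 5 hearts, 7 held a heart whose gap to the next, divided by the range, passed Dixon's critical value of 0.71; chance alone marks about 1 in 20 groups. Idh2 stood at 1201 CPM in S1Pless replicate 5, with the other S1Pless hearts at 1833 to 1912 CPM, and the ratio of Idh3a to Idh2 in the same heart was 0.491, with the others at 0.273 to 0.328. Sucla2 stood at 453 CPM in S1Pless replicate 1 (others 568 to 594 CPM) and at 572 CPM in control replicate 2 (others 661 to 679 CPM). Got2 stood at 333 CPM in control replicate 1, below 389.99 to 413 CPM in the other controls. Bcat2 stood at 293 CPM in control replicate 3, above 228 to 244 CPM, and Ppm1k at 169 CPM in control replicate 5, above 123 to 133 CPM. The causes were not tested.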

How the results depend on the processing

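The median log2 fold change of the 37 genes stayed below 0 in every alternative run. It was -0.10 with library totals alone, where the median of all genes was 0.12, and -0.11 with the cardiomyocyte score as a covariate. It was -0.045 with scaling to the cardiomyocyte score, an alternative added after seeing the data, as were the length slope and the hearts of title series 38. Leaving out each heart gave -0.27 to -0.21, with 0 to 1 of the 37 called lower, 12 to 23 lower at an unadjusted p below 0.05 and, over all genes, 118 to 504 called higher and 8 to 85 lower. Of the 37, DESeq2 called 8 lower, the length slope 7 and the title series covariate 1 (Ppm1k). Over all genes, counts of higher and lower calls were 1420 and 13 with library totals, 764 and 264 with DESeq2, 1 and 0 with the cardiomyocyte covariate, 1748 and 4 with cardiomyocyte scaling, 680 and 253 with the length slope, and 45 and 1 in title series 38. Under the cardiomyocyte covariate 11 genes had a log2 fold change above 0: Idh2 0.15, Idh3g 0.0090, Suclg1 0.13, Mdh2 0.071, Mdh1 0.018, Got1 0.011, Slc25a11 0.041, Bcat2 0.086, Bckdhb 0.052, Acad8 0.038 and Mccc2 0.078. Under cardiomyocyte scaling 7 did: Dlst 0.0031, Got1 0.035, Bcat2 0.0027, Acadsb 0.0092, Acad8 0.0403, Hibch 0.0058 and Bdh1 0.041. In title series 38 the log2 differences of Sucla2/Suclg2, Mdh1/Mdh2 and Idh3a/Idh2 were 0.0028, -0.0013 and -0.074. Leaving out each heart gave -0.084 to 0.15 for Bckdha/Dbt, -0.12 to 0.10 for Idh3a/Idh2, -0.055 to 0.037 for Mccc1/Mccc2, -0.011 to 0.027 for Mdh1/Mdh2 and -0.0897 to 0.0094 for Sucla2/Suclg2. The cause of these shifts was not tested. The cardiomyocyte score was 11.91 to 12.154 in S1Pless hearts and 12.158 to 12.36 in controls, so the groups nearly met. Being lower in S1Pless hearts, the score as a covariate cannot be fully told apart from the genotype. No paired analysis was possible because the labels give the groups no shared replicate number and tie no heart to a litter; 2 S1Pless hearts have title numbers next to those of controls, with no meaning given. With 5 hearts a group and standard errors of 0.08 to 0.15, none of the 37 single log2 differences passed the threshold in the main edgeR fit. The smallest difference that could be detected was not calculated.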
